A study of Bos taurus with 12 samples.

Results

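Gene expression in rumen papillae was compared between the first week of a grain challenge and the forage diet that came before it, within the same 4 Holstein dairy cows. The comparison used 8 of the 12 arrays of the study, 4 taken on the high forage diet (week 0, the control) and 4 taken in the first week of grain (week 1), all from papillae of the ventral sac. Each week 1 array was set against the week 0 array of the same animal, and the other 4 arrays came from the third week of grain (week 3). No strain other than Holstein and no other treatment is named for either group. There were no cows kept on forage throughout, so diet and calendar week cannot be told apart. All 24016 probe sets other than the control probe sets were tested, and 9155 genes were named by a probe set that lists 1 gene.

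Papillae are the finger-like projections of the rumen wall that absorb the short-chain fatty acids made by rumen microbes. Their surface is a stratified squamous epithelium with a basal layer of dividing cells and a cornified outer layer that faces the rumen contents, over a core of connective tissue with vessels, fibroblasts and immune cells. Grain is fermented faster than forage and lowers rumen pH, and the papillae are known to respond to such diets with growth and with changes in absorption and barrier function.

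The log2 values were deposited relative to the median that each probe set had over the 12 arrays, which is 0. They carry no absolute level, so levels of different genes were not compared, and the tissue label could not be checked against the levels of its markers. The cows did not shift alike: the median difference over all probe sets was -0.0370, 0.0746, 0.00354 and 0.0626 in cows 1 to 4, and 35.3%, 75.5%, 65.2% and 69.4% of probe sets were higher at week 1. Hybridization controls, 18 probe sets for RNA added to the hybridization mix, stood high on both arrays of cow 1 (0.492 and 0.480) and on the week 0 array of cow 2 (0.719), while the remaining 9 averaged -0.325 to 0.0546. Some results below are also given without these 3 arrays, called the arrays with raised controls. In that fit only cows 3 and 4 keep the arrays of both week 0 and week 1, so it has fewer pairs as well. Over the 24016 probe sets the difference profiles of pairs of cows correlated between -0.169 (cows 1 and 4) and 0.271 (cows 3 and 4). The number of arrays limits the precision of every value here.

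After 1 week of grain a probe set for MHC class I, the molecule that displays intracellular peptides to T cells, fell by 0.80 on the log2 scale, and CIAPIN1, a factor of cytosolic iron-sulfur cluster assembly that was named for its anti-apoptotic action, rose by 0.41. These were the only 2 of 24016 probe sets called (limma, cow as block, Benjamini-Hochberg adjusted p under 0.05), a share of 0.00833%, or 0.00416% in each direction. Among the 9155 named genes CIAPIN1 alone was called (0.0109%). The other differences described here did not pass that test and are given as values. CIAPIN1 was at -0.43, -0.03, 0.03 and -0.17 in cows 1 to 4 on forage and at -0.02, 0.43, 0.43 and 0.20 in the first week of grain. The 2 groups overlapped because the cows started from different values, while the 4 within-cow differences lay between 0.37 and 0.45. The mean difference was 0.41 ± 0.04 (SE of the model, n = 4 cows), 1.33-fold higher (limma, adjusted p = 0.0444, higher in 4 of 4 cows).

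Without the term for the cow no probe set was called (limma, 1237 at an unadjusted p under 0.05), and both adjusted p-values were then 0.763. Neither call held without the 3 arrays with raised controls, with CIAPIN1 at 0.39 and the MHC class I probe set at -0.79 (adjusted p = 0.195 for both). The part that the smaller number of pairs in that fit had in this was not tested. At an unadjusted p under 0.05, 4.39% of probe sets were higher and 3.22% lower, so that 57.7% of these were higher. This split depended on the scaling, with 46.3% higher when each array was centred on its median and 39.7% after quantile normalization. Among the 9155 genes 63.3% had a mean difference above 0 and 36.7% below. At an unadjusted p under 0.05, 5.25% were higher and 4.99% lower. In all 4 cows 7.48% were higher and 5.29% lower, and these shares are the background for the gene lists below. The arrays of weeks 0 and 1 did not overlap for 3.11% of genes.

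**Figure D1:**
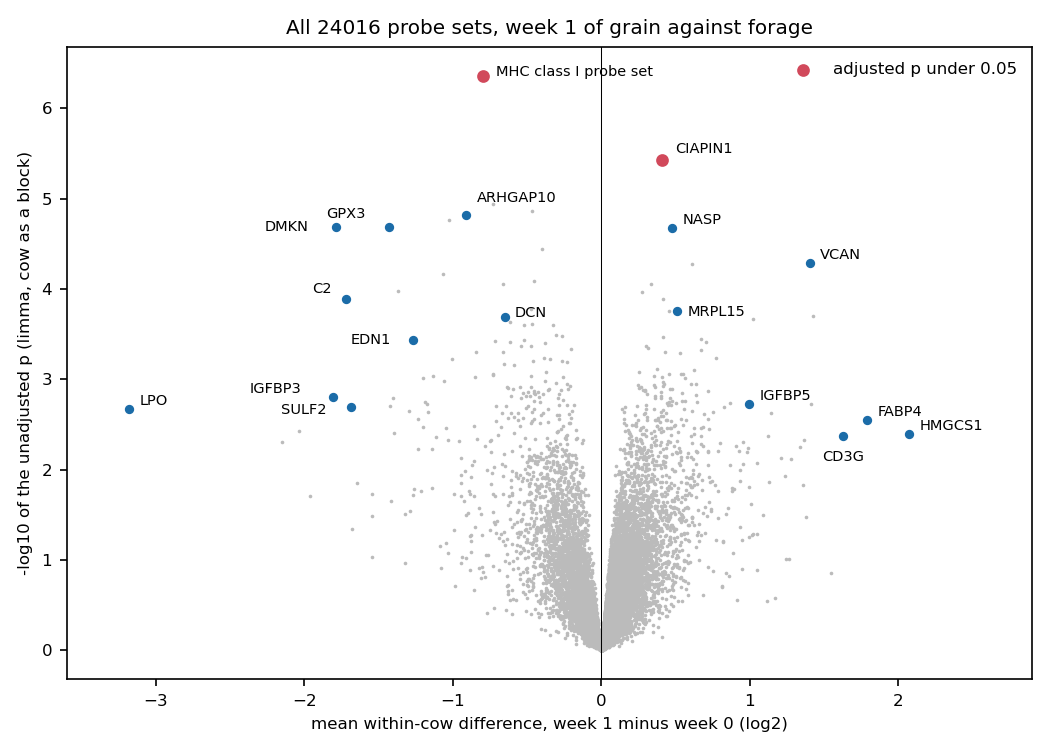
Mean within-cow difference between week 1 and week 0 (x axis, log2) against the -log10 of the unadjusted limma p (y axis) for 24016 probe sets, with 2 red points for the called probe sets and blue points for genes named in the text. The 2 called probe sets have small differences (-0.80 and 0.41) with little spread between cows, and larger ones such as LPO at -3.18 and HMGCS1 at 2.07 lie lower on the y axis.

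Most genes of antigen presentation were lower at week 1, and the median of the list was so in every cow. Of the 13 measured genes of the list 12 were lower, 7 were lower in all 4 cows and 8 had an unadjusted p under 0.05 (61.5%, against 4.99% of all genes), with none higher at that threshold. The median of the list was -0.41, against 0.02 for all genes, and it was -0.33, -0.44, -0.38 and -0.34 in cows 1 to 4. Without the 3 arrays with raised controls 7 of 13 were lower at the same threshold with a median of -0.43, while without the term for the cow none passed.

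The called MHC class I probe set lists several bovine class I entries (BOLA) and cannot be tied to 1 gene. It was at 0.82, 0.83, 0.10 and -0.09 in cows 1 to 4 on forage and at 0.09, -0.09, -0.73 and -0.79 in the first week of grain. Cows 1 and 2 were high and cows 3 and 4 low in both weeks, and the within-cow differences lay between -0.93 and -0.70. It fell by 0.80 ± 0.05 (SE, n = 4 cows), 1.74-fold (limma, adjusted p = 0.0104, lower in 4 of 4 cows). Other probe sets with the same annotation were at -0.73 ± 0.07 (adjusted p = 0.0564), -0.72 ± 0.12 and -0.25 ± 0.08, each lower in all 4 cows, and further ones of this annotation were near 0 or differed in sign between cows.

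A partner of class I and another class I probe set were lower with it. B2M, the invariant light chain of every class I molecule, was at 0.79, 0.54, 0.10 and -0.39 on forage and at 0.43, -0.18, -0.35 and -0.73 after a week of grain, a mean difference of -0.47 ± 0.07 (adjusted p = 0.201) with all 3 of its probe sets lower. BOLA, a class I heavy chain whose symbol the called probe set also lists, was at -0.73 ± 0.14 on a probe set of its own. The 2 groups overlapped for both genes, and every cow was lower at week 1.

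Genes for the peptide supply of class I had lower values, and none of them passed the test. TAP1, a subunit of the transporter that moves peptides into the endoplasmic reticulum, was at 1.08, 0.34, 0.18 and -0.70 on forage and at 0.76, -1.05, -0.85 and -1.97 in the first week of grain. Its mean difference was -1.0 ± 0.18 (adjusted p = 0.267), smallest in cow 1 (-0.33). PSMB8, a catalytic subunit of the immunoproteasome, was at -1.29 ± 0.29, with cow differences from -2.13 to -0.28. TAP2, the other transporter subunit, was at -0.45 ± 0.11, PSMB9, a second immunoproteasome subunit, at -0.50 ± 0.14, and TAPBP, which loads peptides onto class I, at -0.31 ± 0.12. Without the 3 arrays with raised controls these 3 were at -0.71, -0.26 and -0.48. Of 26 measured proteasome genes, a list fixed apart from the immunoproteasome, 1 was higher and none was lower at an unadjusted p under 0.05.

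Several genes of class II, which presents extracellular peptides on antigen-presenting cells, had lower values as well. The difference between the classes was not tested. BOLA-DQA2, a class II DQ alpha chain, was at -0.54 ± 0.09 on 1 of its probe sets and -0.35 ± 0.15 on another, each lower in all 4 cows. A further one was at 0.08 ± 0.13 and higher in 3 of 4 cows. BOLA-DQB1, a DQ beta chain, ran from -0.54 ± 0.21 to -0.37 ± 0.12 over 4 of its probe sets. On another it was at 0.04 ± 0.06 and higher in 3 of 4 cows. BOLA-DRA, the class II DR alpha chain, was at -0.39 ± 0.11 and between -0.54 and -0.33 in the 4 cows. BOLA-DRB3, its beta chain, was at -0.25 ± 0.11, or -0.43 without the 3 arrays with raised controls. The class II genes BOLA-DQA1 (-0.41 ± 0.32) and BOLA-DMB (-0.25 ± 0.11) were lower in 3 of 4 cows. BOLA-DMA, at -0.15 ± 0.20, was lower in cow 1 alone (-0.68). BOLA-DOA, BOLA-DYA, BOLA-DYB, BOLA-DQA5 and BOLA-DQB, also of class II, were at 0.02 to 0.03 and each higher in 3 of 4 cows. Each was below 0 in cow 1 alone, as was the median over all probe sets, so they give no direction. The same holds for the probe sets of BOLA-DQA2 at 0.08 and BOLA-DQB1 at 0.04. BOLA-N, a class I gene, varied widely between cows, with values of -0.36, 2.29, -0.96 and 1.28 on forage and -4.30, 1.43, -3.40 and 0.36 after a week of grain. Its differences ran from -3.94 in cow 1 to -0.85 in cow 2 around a mean of -2.03 ± 0.50 (adjusted p = 0.344).

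Complement genes, whose products tag microbes and cells for removal, were also lower. Of 15 measured genes 12 were lower, 6 in all 4 cows, and 8 were lower at an unadjusted p under 0.05 (53.3%, against 4.99% of all genes), with a median of -0.45. The list median was -0.35, -0.77 and -0.70 in cows 1 to 3 and 0.06 in cow 4. At the same threshold 7 were lower and 1 was higher without the 3 arrays with raised controls, 5 were lower without cow 3, and 4 without the term for the cow.

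C2, the protease that joins C4 in the classical pathway, was at 1.02, 0.02, 0.11 and -0.87 on forage and at -0.02, -1.73, -2.35 and -2.50 in the first week of grain. All 4 cows were lower, with differences from -2.45 to -1.05, although the groups overlapped through cow 1. The mean difference was -1.72 ± 0.24, 3.30-fold lower (adjusted p = 0.157), and both of its probe sets were lower. CFB, the matching protease of the alternative pathway, was at -1.13 ± 0.22 and C4A, a C4 gene, at -0.66 ± 0.12. The initiating proteases C1R and C1S were at -0.45 ± 0.09 and -0.61 ± 0.14.

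The chains of C1q, the recognition unit of the classical pathway that macrophages make, were less even. C1QC was at 3.35, 1.74, -0.07 and -2.04 on forage and at 0.38, 0.01, -0.99 and -1.69 after a week of grain, so that cow 4 was slightly higher and the other cows were lower by at least 0.92 (-2.97, -1.73 and -0.92). C1QA, at -1.26 ± 0.41, had the same 3 cows lower and cow 4 at 0.15. C3, the central component, was at -0.33 ± 0.35, with cow 4 at 1.19 and the others between -1.31 and -0.35, so its difference was smaller than its spread. Without the 3 arrays with raised controls C1QC was at -0.58, C1QB, the third chain, at 0.05 and C3 at 0.09.

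**Figure D2:**
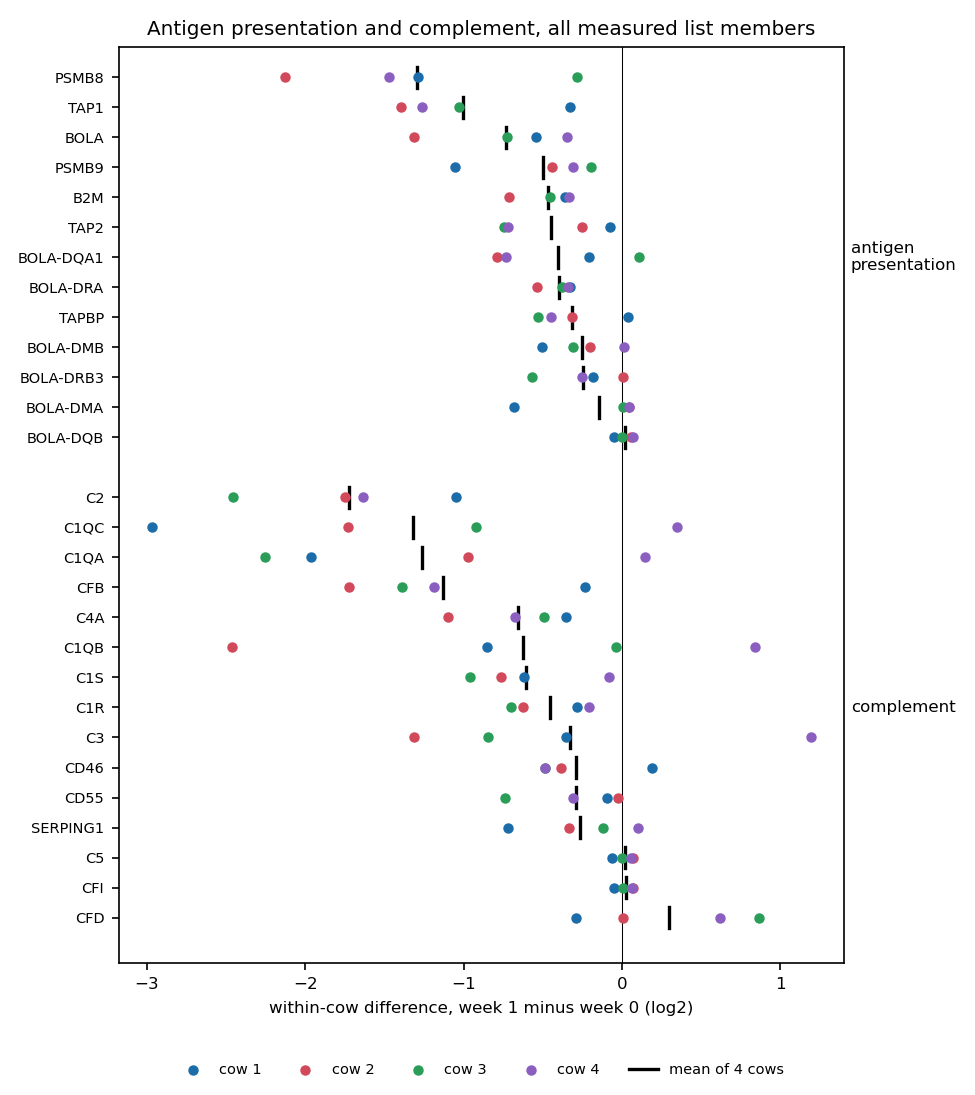
Within-cow difference between week 1 and week 0 (x axis, log2) for every measured gene of the antigen presentation and complement lists (y axis), with 1 coloured point for each cow and a bar for the mean of 4 cows. Points of all 4 cows lie left of 0 for B2M, TAP1, PSMB8, C2 and CFB, while cow 4 lies right of 0 for C1QA, C1QB, C1QC and C3.

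Markers of immune cells were set beside these genes. In bulk tissue, fewer cells of a type and less RNA per cell cannot be told apart. The means of all 3 measured macrophage markers were below 0, CSF1R (the receptor for macrophage colony-stimulating factor) at -0.38, CD14 at -0.33 and CD68 at -0.55, with a median of -0.38. CD68 was lower in 2 of the 4 cows (-1.54, 0.06, -0.74 and 0.03 in cows 1 to 4). In the wider list of monocytes, macrophages and dendritic cells 6 of 11 were lower, 2 of them at an unadjusted p under 0.05, and the median was -0.08. Without the 3 arrays with raised controls none was lower and 1 was higher at that threshold with a median of 0.06, and without cow 1 none was lower and 2 were higher with a median of 0.05. Its mean level per array lay between -0.419 and 0.489 on forage and between -0.261 and 0.00411 in the first week of grain, so the groups overlapped. Those of the antigen presentation list lay between -0.393 and 0.835 and between -0.861 and 0.408, and those of the complement list between -0.860 and 0.884 and between -0.941 and 0.237. The part of the macrophage markers in these results was not tested, and since the values are centred none of them can be said to be near 0 in level.

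Lymphocyte genes were split. Of 14 measured T, B and NK cell genes 10 had values above 0 and 4 below, 2 were higher and 1 lower at an unadjusted p under 0.05, and the median was 0.02. CD3G, a chain of the T cell receptor complex, was at -0.65, 0.20, -0.49 and -0.64 on forage and at -0.15, 2.03, 2.31 and 0.74 in the first week of grain, a difference of 1.63 ± 0.40 (adjusted p = 0.356). CD3D, another chain, was higher in all 4 cows too, at 1.12 ± 0.28, whereas CD3E, the third chain measured, was at -0.46 ± 0.30 and lower in 3 of 4 cows.

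Values of other lymphocyte genes varied in sign. The B cell markers CD79A and MS4A1 were at 0.03 and 0.04. Their median was below 0 in cow 1 alone, as was that over all probe sets, so they give no direction. CXCR6 and IGHM are no members of the list and were named for the size of their differences. CXCR6, a chemokine receptor of tissue-resident T cells, was at -1.40 ± 0.34 and at or below -0.91 in every cow. IGHM, the IgM heavy chain, was at -1.54 ± 0.80, with cow 2 at -3.37 and the others between -1.09 and -0.84. JCHAIN, which joins IgM and IgA units in plasma cells, was at -0.63 ± 0.49, a difference close to its error. PTPRC, the pan-leukocyte antigen CD45, was at -0.51 ± 0.13, but 2 of its 3 probe sets had the opposite sign, so it gives no direction.

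The counts of inflammatory genes stayed near the background at this time. Of 29 measured genes of inflammation and innate sensing 1 was higher and 1 lower at an unadjusted p under 0.05, with a median of 0.02, but 5 were higher and 4 lower without cow 1 and 1 was higher and 3 lower without the 3 arrays with raised controls. ICAM1, an adhesion molecule for leukocytes, was higher in all 4 cows at 0.61 ± 0.15 (adjusted p = 0.356). The chemokine CCL2 had the highest mean difference of the list, 0.95 ± 0.55, and was higher in 3 of 4 cows. It was at 1.73 without the 3 arrays with raised controls. RELA, a further member, was at -0.19 ± 0.11 and lower in 3 of 4 cows. LBP, which carries bacterial lipopolysaccharide, was lower in all 4 at -1.42 ± 0.50, with cows 2 and 3 at -2.27 and -2.84 and cows 1 and 4 at -0.39 and -0.18. TLR4, the lipopolysaccharide receptor, was at 0.05 ± 0.18, the chemokine CXCL5 at 0.06 ± 0.27 and the cytokine IL1B at 0.02 ± 0.20, each within its error. Of 13 interferon-stimulated genes 2 were lower and none higher at that threshold, or 1 without the 3 arrays with raised controls and none without cow 3. These were the transcription factors IRF9 at -0.57 ± 0.21 and IRF7 at -0.34 ± 0.14, and 1 of the 3 probe sets of IRF7 had the opposite sign. In all 4 cows 3 of the 13 were lower (23.1%, against 5.29% of all genes) and 1 was higher (7.69%, against 7.48%). The 3 lower ones were IRF9, MX1 at -0.82 ± 0.48 and STAT2 at -0.21 ± 0.11.

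Of the 9155 genes LPO had the largest mean difference, and another secreted peroxidase was lower beside it. LPO, lactoperoxidase, an antimicrobial peroxidase of secretions, was at 0.50, 0.71, 0.47 and -0.43 in cows 1 to 4 on forage and at -0.76, -1.78, -5.02 and -3.91 in the first week of grain. The groups did not overlap, and cows 3 and 4 were lower by more than cows 1 and 2. The mean difference of -3.18 ± 0.70, 9.06-fold, did not pass the test (adjusted p = 0.306), and the cows ranged from -5.49 to -1.27. GPX3, the secreted glutathione peroxidase, was at 0.70, 0.54, 0.27 and -0.34 on forage and at -0.28, -1.04, -1.45 and -1.80 after a week of grain. Its difference of -1.43 ± 0.16 (2.70-fold lower, adjusted p = 0.0564) was seen in all 4 cows, between -1.72 and -0.97. BPIFA2A, a secreted protein of the bactericidal/permeability-increasing fold, was higher in all 4 cows at 1.15 ± 0.26.

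Within the cell the stress genes did not share a direction. Of 23 measured genes of oxidative stress and detoxification 4 were higher and 2 lower at an unadjusted p under 0.05 (17.4% and 8.70%), and without the 3 arrays with raised controls none was higher and 1 was lower. PRDX3, the mitochondrial peroxiredoxin, was at 0.40 ± 0.09, or 0.22 with its probe sets averaged, and its arrays did not overlap between the weeks. HMOX1, the haem-degrading oxygenase, was at 1.34 ± 0.35, from 2.17 in cow 1 to 0.15 in cow 4, and at 0.66 without those 3 arrays. GCLC, the catalytic subunit of glutathione synthesis, was at 0.61 ± 0.18 and at 0.22 without them.

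Most measured genes of the basal layer had lower values, and none of them passed the test. Of 8 measured genes of the basal layer and its basement membrane 5 were lower at an unadjusted p under 0.05 and none was higher, 4 were lower in all 4 cows, and the median was -0.30. That count was 3 without the 3 arrays with raised controls, 3 without cow 4 or its week 1 array, and 3 without the term for the cow. Of the 8 genes 6 were lower and 2 higher. The list mean per array lay between 0.117 and 0.241 on forage and between -0.258 and 0.212 in the first week of grain. In cow 1 it did not fall, at 0.208 on forage and 0.212 in the first week of grain. The median difference of the list was -0.04 in cow 1 and -0.19, -0.30 and -0.34 in cows 2 to 4. KRT5 and KRT15, keratins of basal cells, were at -0.33 ± 0.09 and -0.31 ± 0.10, and KRT5 was at -0.50 without those 3 arrays. The hemidesmosome genes COL17A1 and ITGB4, which anchor basal cells to the basement membrane, were at -0.32 ± 0.09 and -0.28 ± 0.08, and LAMB3, a laminin chain they bind through, at -0.94 ± 0.32. LAMB3 was at -1.51, -1.29 and -1.02 in cows 2 to 4 and at 0.04 in cow 1, while KRT5, KRT15, COL17A1 and ITGB4 were lower in all 4 cows. Of 6 measured markers of stratified squamous epithelium, KRT5 and KRT15 among them, 5 were lower and 1 higher. Their median was -0.0917, -0.352, -0.275 and -0.218 in cows 1 to 4. The part of the share of epithelium in these values, and in those of differentiation and cell contacts below, was not tested.

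Among genes of epithelial differentiation DMKN stood out. DMKN, dermokine, a protein that differentiating keratinocytes secrete, was at 0.99, 0.54, 0.47 and 0.44 on forage and at -0.60, -1.82, -1.31 and -0.98 in the first week of grain. The groups did not overlap, and the difference of -1.79 ± 0.19, 3.45-fold lower, lay just outside the threshold (adjusted p = 0.0564). Of 11 measured genes of the list 4 were lower and none higher at an unadjusted p under 0.05 (36.4%, against 4.99% of all genes), with a median of -0.10, and 2 were so without cow 2 or cow 3 or any one of their week 0 and week 1 arrays. The others were S100A9, a calcium-binding alarmin, at -0.86 ± 0.24, TGM3, a transglutaminase of the cornified envelope, at -0.45 ± 0.15, and GRHL1, a transcription factor of the epidermal barrier, at -0.31 ± 0.12. KRT10, a keratin of suprabasal cells, was at 0.18 ± 0.08 and KRT4, a keratin of wet stratified epithelia, at 0.01 ± 0.04.

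Most genes of cell contacts had lower values, few of them at an unadjusted p under 0.05. Of 9 desmosome genes 7 were lower, 2 of them at an unadjusted p under 0.05 and none higher, and of 13 genes of tight, adherens and gap junctions 10 were lower, 3 at that threshold, a number that was 6 without cow 1 and 1 without cow 3. The plaque proteins PKP1 and PKP3, which tie desmosomes to keratin, were at -0.34 ± 0.06 (adjusted p = 0.267) and -0.41 ± 0.09 and lower in all 4 cows. DSG1, a desmosomal cadherin, was at -0.65 ± 0.35, with cow 3 at -2.08 and cow 1 at 0.28, and at -1.19 without the 3 arrays with raised controls. GJB6 and GJB2, gap junction connexins, were at -1.27 ± 0.43 and -0.22 ± 0.06, and GJB2 had 1 probe set of 3 that ran the other way. CGN, a tight junction adaptor, was at -0.35 ± 0.10 and close to 0 in cow 1 (-0.01). CDH13, a cadherin without a cytoplasmic tail, was at 0.79, 0.53, 0.45 and 0.44 on forage and at 0.34, -0.21, -0.40 and -0.18 after a week of grain, with no overlap and a difference of -0.66 ± 0.09 (adjusted p = 0.132).

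In the extracellular matrix the collagen genes were higher. Of 20 measured matrix genes 17 were higher, 7 in all 4 cows, and 9 were higher and 1 lower at an unadjusted p under 0.05 (45%, against 5.25% of all genes), with a median of 0.30. The median was 0.08, 0.71, 0.19 and 0.08 in cows 1 to 4, so cow 2 gave the largest part. The count of 9 was 3 without the 3 arrays with raised controls, 5 without cow 2 and 6 without cow 3, while the median without those arrays was 0.28. With all probe sets of a gene averaged, the median log2 difference of the list extracellular matrix was 0.17, and COL1A1 was at 0.36. COL1A1, a chain of type I collagen, was at -0.35, -0.39, -0.81 and -0.76 on forage and at 0.18, 0.55, -0.07 and -0.28 in the first week of grain, with no overlap and a difference of 0.67 ± 0.17 (adjusted p = 0.357). COL1A2, the partner chain, was at 0.72 ± 0.19, with cow 2 at 1.44 and the others between 0.41 and 0.56. COL3A1, of type III collagen, was at 0.54 ± 0.11, POSTN, a matricellular protein, at 0.62 ± 0.18 and MMP2, a gelatinase, at 0.28 ± 0.07. THBS1, a matricellular glycoprotein, was at -0.55 ± 0.18, but 4 of its 6 probe sets had the opposite sign.

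Proteoglycans and their sugars split. VCAN, versican, a large hyaluronan-binding proteoglycan, was at -0.23, -0.54, -1.45 and -1.97 on forage and at 0.76, 0.53, 0.59 and -0.46 in the first week of grain. It was higher in all 4 cows by 0.99 to 2.04, a mean difference of 1.40 ± 0.17, 2.65-fold (adjusted p = 0.105), with all 3 of its probe sets higher. DCN, decorin, a small proteoglycan that binds collagen fibrils, was at 0.91, 0.58, 0.04 and -0.35 on forage and at -0.04, -0.05, -0.55 and -0.79 after a week of grain, a difference of -0.65 ± 0.10 (adjusted p = 0.195). The cow with the highest value of DCN on forage, cow 1, had the largest difference (-0.95). Since the difference contains the forage value, no link between them is read from this.

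Enzymes of glycosaminoglycans were among the genes with differences in all 4 cows. UGDH, which makes the UDP-glucuronate used in these sugars, was at 0.60 ± 0.12 and HYAL1, a hyaluronidase, at 0.61 ± 0.16, and neither had overlapping groups. In their list of UDP-sugars, hyaluronan and proteoglycans 3 of 17 genes were higher and none lower at an unadjusted p under 0.05 (17.6%), VCAN being the third. SULF2, which removes sulfate groups from heparan sulfate, was at 0.84, 0.01, 0.38 and 1.55 on forage and at -0.01, -2.10, -1.59 and -0.23 in the first week of grain, a difference of -1.68 ± 0.37 (adjusted p = 0.305).

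Fibroblast genes did not follow the collagens. Of 10 measured fibroblast genes 4 were higher and 6 lower, with 1 in each direction at an unadjusted p under 0.05 and a median of -0.14. The mean of the fibroblast list per array lay between -0.221 and 0.293 on forage and between -0.239 and 0.0841 in the first week of grain, and that of the matrix list between -0.381 and -0.0807 and between -0.145 and 0.266. PDGFRB, a receptor of perivascular cells and fibroblasts, was at 0.25 ± 0.10 and LUM, a small proteoglycan of collagen fibrils, at -0.19 ± 0.12. In the list of endothelium and smooth muscle none was higher and 2 of 14 were lower at that threshold, the muscle filament gene DES at -0.92 ± 0.27 and the endothelial adhesion gene PECAM1 at -0.30 ± 0.12. The part of these cell types in the matrix values was not tested.

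**Figure D3:**
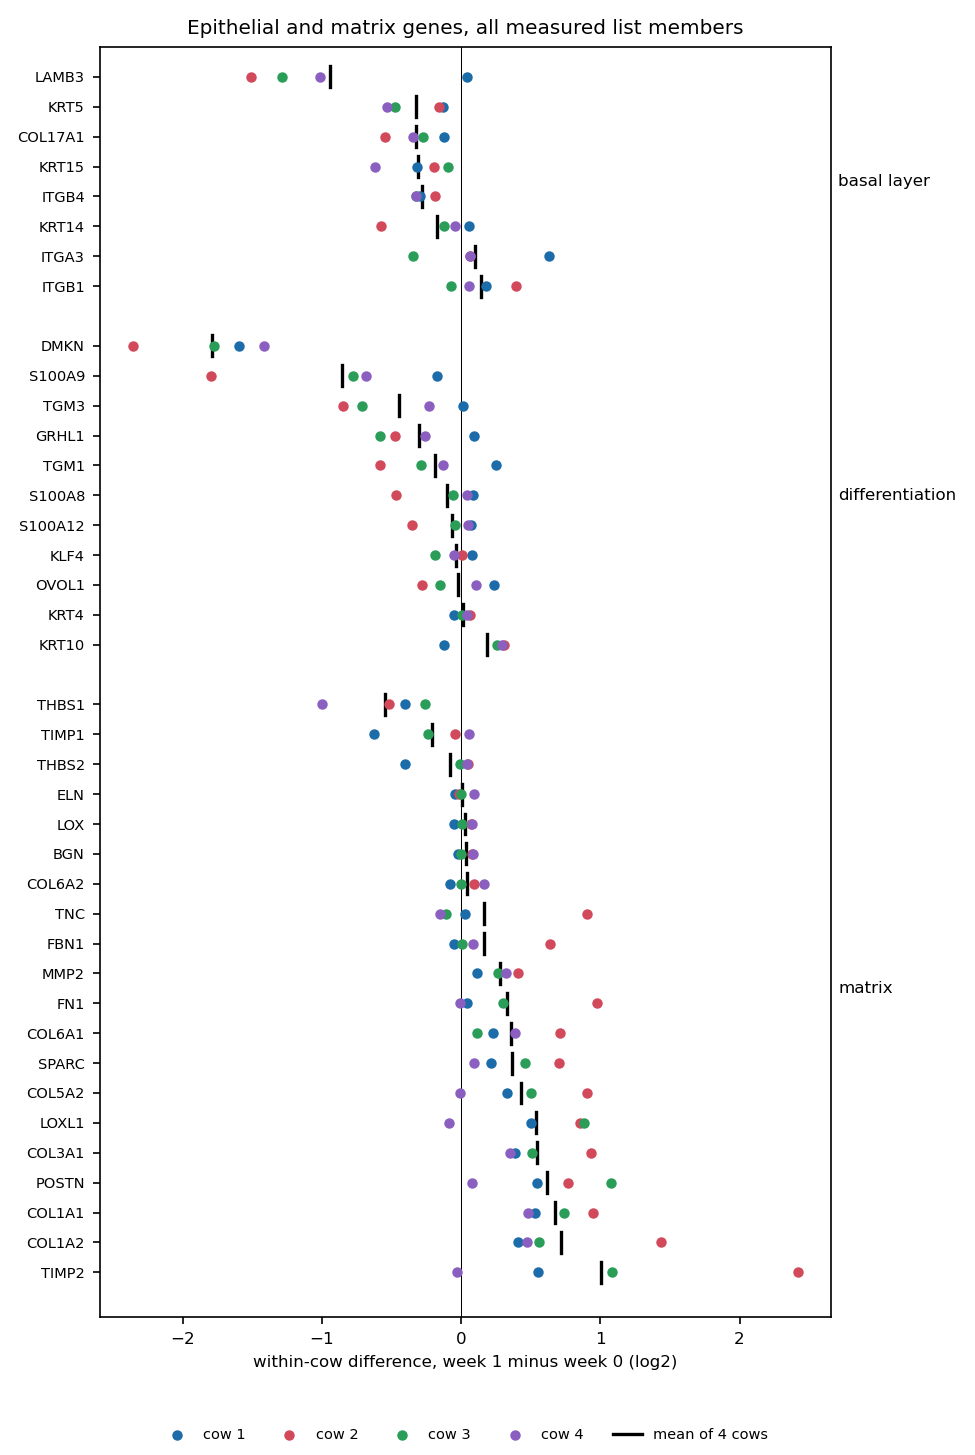
Within-cow difference between week 1 and week 0 (x axis, log2) for every measured gene of the basal layer, differentiation and matrix lists (y axis), with 1 coloured point for each cow and a bar for the mean of 4 cows. All 4 points of DMKN lie between -2.36 and -1.42, and cow 2 is the point farthest to the right for COL1A2 (1.44) and TIMP2 (2.42).

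Binding proteins of the insulin-like growth factors (IGF) differed in opposite directions. IGFBP3, the main carrier of IGF in blood and an inhibitor of it in tissue, was at 0.82, 1.12, 1.08 and 0.46 on forage and at -0.63, -1.45, -1.47 and -0.19 in the first week of grain. The groups did not overlap, and the difference of -1.81 ± 0.38, 3.50-fold lower (adjusted p = 0.296), was smallest in cow 4 (-0.65). IGFBP5, which binds IGF and matrix, was at -0.85, -0.27, -1.49 and -1.06 on forage and at 0.18, 0.45, 0.03 and -0.34 after a week of grain, a difference of 1.00 ± 0.22 (adjusted p = 0.302) that every cow showed. IGFBP6, which prefers IGF2, was at -0.94 ± 0.29 and lower in all 4 cows. Of 14 measured genes of the axis 1 was higher and 3 lower at an unadjusted p under 0.05 (4 higher without cow 1), and IGF1, the growth factor itself, was at 0.07 ± 0.06. IGF2, at -0.39 ± 0.16, was at -0.79 and -0.78 in cows 1 and 2 and at 0.00208 and -0.00245 in cows 3 and 4, and 2 of its 4 probe sets disagreed in sign. It was at 0.00394 without the 3 arrays with raised controls.

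Signalling genes outside any list were among those of smallest p. ARHGAP10, a GTPase-activating protein, was at 0.68, 0.55, 0.61 and 0.97 on forage and at -0.01, -0.16, -0.40 and -0.25 in the first week of grain, with no overlap and a difference of -0.91 ± 0.09 (1.88-fold lower, adjusted p = 0.0564). EDN1, the vasoconstrictor endothelin, was lower in all 4 cows, with differences from -1.75 to -0.74 (adjusted p = 0.237), although cow 2 was far below the other cows in both weeks (-1.26 and -2.91). PTPRR, a tyrosine phosphatase of the MAP kinase pathway, was higher in all 4 cows at 1.41 ± 0.30 and its groups did not overlap.

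Further genes of small p had the same sign in all 4 cows. ADPRS, which removes ADP-ribose from proteins, was at -0.40 ± 0.05 (adjusted p = 0.0856), but 1 of its 3 probe sets disagreed in sign. FUT6, a fucosyltransferase, was at -0.47 ± 0.07 and SH3GLB2, an endophilin, at -0.32 ± 0.05. On the higher side PITPNA, a phosphatidylinositol transfer protein, was at 0.46 ± 0.07, MTERF3, a mitochondrial factor for ribosome assembly, at 0.31 ± 0.05 and DCAF17, a ubiquitin ligase receptor, at 0.43 ± 0.07. MAGEH1, a MAGE family protein, was at 0.53 ± 0.09 and SLC25A21, a mitochondrial carrier of dicarboxylates, at 1.21 ± 0.34. The groups did not overlap for PITPNA, DCAF17 and MAGEH1.

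**Figure D4:**
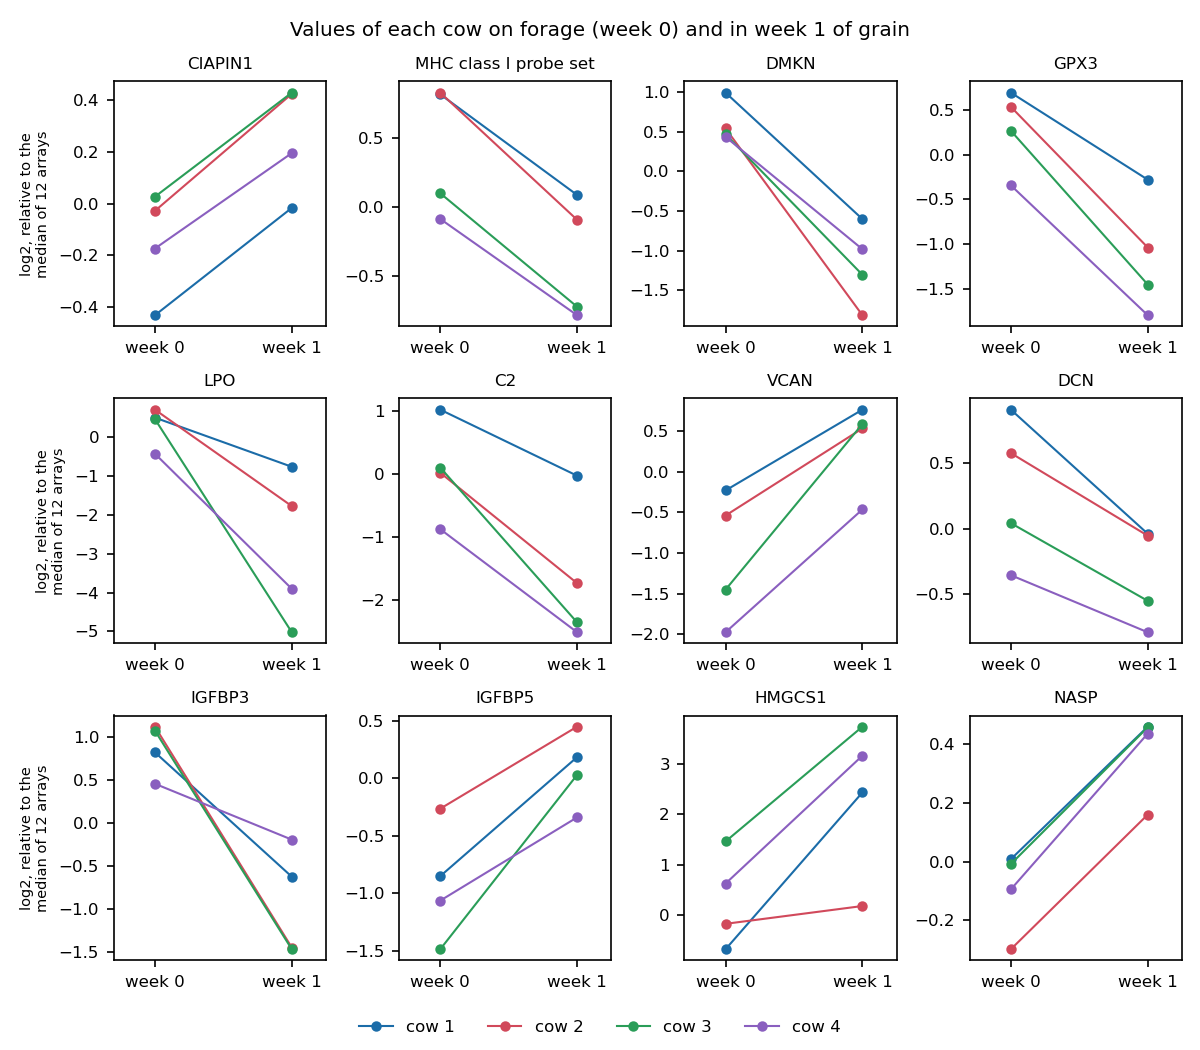
Values of 12 genes or probe sets in each cow (y axis, log2 relative to the median of 12 arrays, own scale in each panel) at week 0 and week 1 (x axis), with 1 line for each cow. The 4 lines of CIAPIN1, the MHC class I probe set and NASP run nearly in parallel, those of LPO spread from -1.27 to -5.49 in their difference, and cow 2 is nearly flat for HMGCS1.

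Lipid genes showed a few large differences. HMGCS1, which makes the HMG-CoA from which cholesterol is built, was at -0.68, -0.18, 1.46 and 0.62 on forage and at 2.43, 0.18, 3.74 and 3.17 in the first week of grain. It was higher by 2.28 to 3.12 in cows 1, 3 and 4 and by 0.35 in cow 2, a mean of 2.07 ± 0.51 (adjusted p = 0.351), or 1.20 with its probe sets averaged. The median of the 15 measured genes of cholesterol synthesis was 0.41, -0.22, 0.30 and 0.45 in cows 1 to 4, so cow 2 ran the other way, and 3 genes were higher and none lower at an unadjusted p under 0.05 (20%). That count was 1 without the 3 arrays with raised controls, 1 without cow 4, 6 without cow 2 and 8 without the week 1 array of cow 2. The other 2 were FDFT1, squalene synthase, at 0.54 ± 0.20 and ACAT2, which condenses acetyl-CoA, at 0.44 ± 0.16, both slightly lower in cow 2.

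Genes of fatty acids were mixed. FABP4, a fatty acid carrier of fat cells, macrophages and small vessels, was at -2.69, -0.02, 0.03 and -1.07 on forage and at -0.36, 1.26, 2.48 and 0.02 in the first week of grain, higher in all 4 cows at 1.79 ± 0.41 (adjusted p = 0.316). Of the fat cell markers ADIPOQ and LEP the median was 0.02. It was below 0 in cow 1 alone, as was the median over all probe sets, so these markers give no direction. ELOVL6, which elongates saturated fatty acids, was at 0.67 ± 0.16 with no overlap, and FABP5, the epithelial fatty acid carrier, at 0.16 ± 0.04. PDK4, the kinase that holds pyruvate back from oxidation, was at -0.66 ± 0.11 and lower in all 4 cows, but 1 of its 3 probe sets had the opposite sign. In the list of fatty acid oxidation and PPAR targets 4 of 23 were higher and 2 lower at an unadjusted p under 0.05, and in that of fatty acid synthesis 2 of 15 were higher, or none without the 3 arrays with raised controls. Among 9 genes of ketone body and butyrate metabolism, the main use that the epithelium makes of butyrate, none passed that threshold, and ACAT1 and BDH1 were at 0.22 ± 0.12 and -0.03 ± 0.09.

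Transporters differed little. Of 13 genes of short-chain acid, pH and sodium transport 2 were higher and none lower at an unadjusted p under 0.05, ATP1B1, a subunit of the sodium pump, at 0.42 ± 0.15 (0.25 without the 3 arrays with raised controls) and AQP3, a water and glycerol channel, at 0.17 ± 0.07. SLC16A1, the monocarboxylate transporter, was at 0.14 ± 0.11 and SLC9A3, the sodium and proton exchanger, at 0.16 ± 0.11 (0.31 without those arrays), and 1 of its 3 probe sets disagreed in sign. SLC5A1, the sodium-coupled glucose transporter, was at 0.30, 0.36, 0.04 and -0.04 on forage and at 0.17, -1.04, -0.99 and -0.42 in the first week of grain, lower in all 4 cows at -0.74 ± 0.22 (adjusted p = 0.435).

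Genes of cell cycle and DNA replication were higher about as often as all genes, few of them at an unadjusted p under 0.05. NASP, a chaperone of histones, was at 0.01, -0.30, -0.01 and -0.09 on forage and at 0.46, 0.16, 0.46 and 0.44 in the first week of grain, with no overlap and a difference of 0.48 ± 0.05 (adjusted p = 0.0564). The 4 cows lay between 0.45 and 0.53. H1-2, a linker histone, was at -1.40 ± 0.29 and lower in all 4 cows. Of 25 measured genes of cell cycle and DNA replication 17 were higher (68%, against 63.3% of all genes). In all 4 cows 6 were higher (24%, against 7.48%). At an unadjusted p under 0.05, 3 were higher and 1 lower (12% and 4%). Without the 3 arrays with raised controls none passed in either direction and 13 of 25 were higher, while 6 were higher at that threshold without the week 1 array of cow 2. MCM6, a replication helicase subunit, was at 0.50 ± 0.17, TYMS, thymidylate synthase, at 0.30 ± 0.11, CCND1, a cyclin of the G1 phase, at 0.25 ± 0.07 and CDKN1A, an inhibitor of cyclin-dependent kinases, at -0.28 ± 0.09.

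Most ribosome assembly genes had positive values. Of 25 ribosome biogenesis genes 20 were higher (80%, against 63.3% of all genes). An unadjusted p under 0.05 was reached by 4 of them (16%), or by 2 without the 3 arrays with raised controls and 2 without cow 1. Of 30 cytosolic ribosomal proteins 25 had a mean below 0, with a median of -0.04, and none of those had such a p or was lower in all 4 cows. Their median was 0.07, -0.31, 0.03 and 0.07 in cows 1 to 4, so only cow 2 lay below 0. The difference between the 2 lists was not tested. The nucleolar proteins NOLC1, UTP18, GAR1 and NCL were at 0.47 ± 0.10, 0.28 ± 0.08, 0.28 ± 0.09 and 0.15 ± 0.05, and RIOX2, a nucleolar oxygenase, at 0.41 ± 0.06 (0.20 with its probe sets averaged). Without the 3 arrays with raised controls UTP18 was at 0.17 and GAR1 at 0.45. MRPL15, a mitochondrial ribosomal protein, was at -0.37, -0.29, 0.02 and -0.19 on forage and at 0.30, 0.29, 0.27 and 0.36 in the first week of grain, with no overlap and a difference of 0.51 ± 0.08 (adjusted p = 0.185). It was the only 1 of 35 mitochondrial ribosome genes at that threshold.

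Other genes of the pathway of CIAPIN1 stayed near the background. Of 22 measured genes of iron-sulfur cluster assembly and iron handling, CIAPIN1 included, 2 were higher and 1 lower at an unadjusted p under 0.05 (9.09% and 4.55%), with a median of 0.00, and 4 were higher without the 3 arrays with raised controls. ACO1, the cytosolic aconitase that doubles as an iron sensor, was at 0.22 ± 0.09 and ISCU, the scaffold for cluster assembly, at -0.20 ± 0.08, or -0.05 without those arrays, and 1 of its 2 probe sets disagreed in sign.

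**Figure D5:**
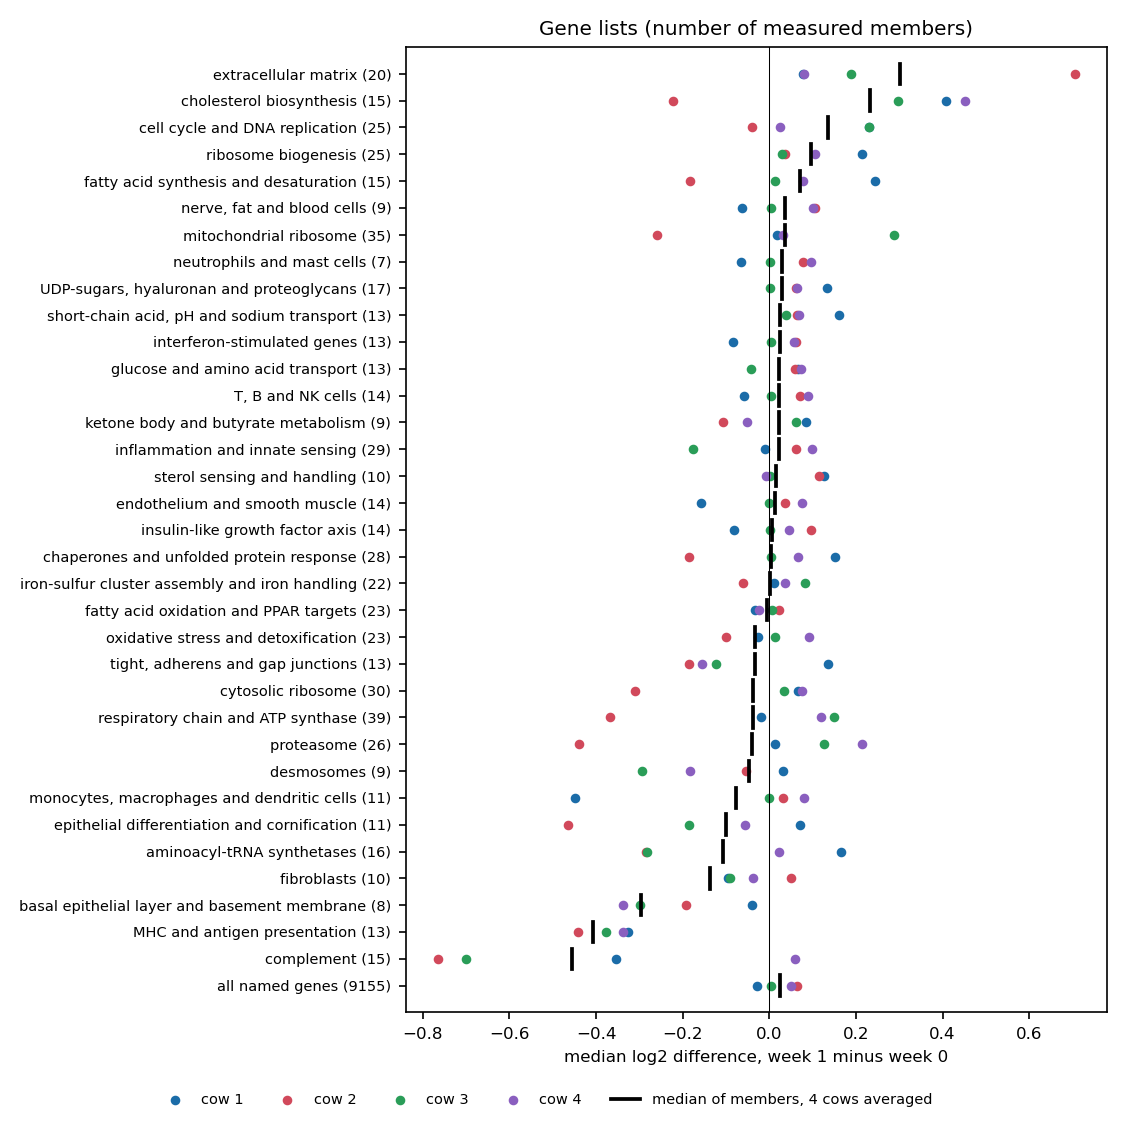
Median log2 difference between week 1 and week 0 (x axis) over the measured genes of each list (y axis, number of genes in parentheses), with a coloured point for the median in each cow and a bar for the median of the 4-cow means. The points of all 4 cows lie left of 0 for antigen presentation and right of 0 for the matrix, and cow 2 stands apart from the other cows for cholesterol synthesis, the proteasome and the respiratory chain.

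Medians close to 0 had no settled sign. When each array was centred on its median, those of the inflammation, interferon, lymphocyte, IGF, sterol-handling, iron-sulfur and both transport lists turned from just above to just below 0, as did that of all genes. The medians of antigen presentation, complement, the basal layer and the matrix kept their sign under both scalings, at -0.43, -0.48, -0.32 and 0.28 with centring and at -0.35, -0.37, -0.29 and 0.31 with quantile normalization.

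The week 3 values of the same genes were set beside those of week 1, and both comparisons share the week 0 arrays. Most of these genes were picked for their week 1 difference, so how near the values of the weeks lie to each other is not a result. The MHC class I probe set was at -0.80 in the first week and -0.32 in the third, B2M at -0.47 and -0.09, TAP1 at -1.0 and -0.23, C2 at -1.72 and 0.38, LPO at -3.18 and 0.25 and GPX3 at -1.43 and 0.19. The chemokine CXCL5 was at 0.06 in the first week and at 1.77 ± 0.27 in the third. CIAPIN1 was at 0.41 and 0.03, NASP at 0.48 and -0.07 and MRPL15 at 0.51 and 0.07. HMGCS1 was at 2.07 and -1.43 and FDFT1 at 0.54 and -0.94.

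The same pairs of values were taken for matrix, IGF and contact genes. VCAN was at 1.40 and 1.30, COL1A1 at 0.67 and 0.91, COL3A1 at 0.54 and 0.83, IGFBP5 at 1.00 and 1.06, IGFBP6 at -0.94 and -1.44 and LAMB3 at -0.94 and -1.20. ARHGAP10 was at -0.91 and -0.72 and CDH13 at -0.66 and -0.75, while GJB6 was at -1.27 and 0.64. DSG1 was at -0.65 ± 0.35 in the first week and at -2.37 ± 0.35 in the third. The difference between these weeks was not tested here.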

How the data were processed

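Papillae RNA of 4 cows was hybridised to Affymetrix bovine arrays, 12 in all. Per the submitters' processing notes the deposited log2 values were made with GCRMA (version not stated in these sources). In the table each probe set has a median of 0 over the 12 arrays, and the log base is not stated. Base 2 was assumed, since the widest range within a probe set is 11.2, which on a natural-log scale means a 74399-fold difference.

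The fit (limma 3.58.1 in R 4.3.3, lmFit and eBayes, two-sided) used all 12 arrays, with week means and the cow as a block, leaving 6 residual degrees of freedom. P-values were adjusted by the Benjamini-Hochberg method over 24016 probe sets, without the 112 AFFX controls, and called at an adjusted p under 0.05. The steps were tested on simulated data whose added differences were larger than both called ones, so differences of their size were not covered. The cows pair the arrays: deviations from the weekly means correlated between 0.303 and 0.494 within a cow and between -0.335 and 0.0662 between cows. The replicates are separate animals.

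Symbols came from the array annotation: 13292 probe sets list 1 gene, 86 several and 10638 none, and 13263 of the first were found by gene ID in the ARS-UCD2.0 gene table, used for names only. A gene with several probe sets is represented by the one with the largest SD over the 12 arrays. The 34 gene lists hold 729 genes, of which 595 were measured.

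The comparison, its members and the lists were chosen with earlier results of these data known. Genes were named by rule: called probe sets, in each direction the 10 of smallest p and the 10 of largest smallest cow difference with the same sign in all 4 cows, up to 4 members of smallest p in each described list, and 20 fixed genes. Every other gene was chosen after its values were seen, as were the list counts under each alternative. Alternatives were the fit without the block, the 8 arrays alone, quantile normalization, centring on the array median, array weights, a robust prior, leaving out the 40% of probe sets with the lowest SD, the mean over the probe sets of a gene, and leaving out the 3 arrays of high hybridization controls, each cow or each array.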

Additional observations from a re-analysis of the deposited data

Results flagged for a closer look

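Of 122 genes and probe sets looked at, 6 had a cow whose difference between week 1 and week 0 stood apart from those of the other 3 by Dixon's test. Chance flags about 1 in 20 such groups. Cow 2 was the one in 5 of the 6. IGHM was at -3.37 in cow 2 and between -1.10 and -0.84 in the others. COL1A2 was at 1.44 in cow 2 and between 0.41 and 0.56 in the others. PKP3 was at -0.72 in cow 2, against -0.33 to -0.29, and GJB2 at -0.46, against -0.17 to -0.11. SCD, the fatty acid desaturase, was at -0.18 in cow 2 and between 0.66 and 0.72 in the others. SH3GLB2, an endophilin, was at -0.48 in cow 3 and between -0.28 and -0.25 in the others.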

How the results depend on the processing

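The number of probe sets called, 2, was 0 without the replicate block (limma, 1237 at an unadjusted p under 0.05), 0 with the 8 arrays of weeks 0 and 1 alone (1401) and 0 after quantile normalization (1612). It was 2 with arrays centred on their median and 2 with a robust prior. With the 3 arrays of raised hybridization controls left out 1 was called, a probe set with no gene name at -2.02, and neither of the 2 calls was kept. Leaving out the 40% of probe sets with the lowest SD gave 11 calls, 2 higher and 9 lower, with DMKN, GPX3, VCAN, ARHGAP10, C2 and the MHC class I probe set among them and CIAPIN1 not (adjusted p = 0.127). Array weights gave 7737 calls, but the estimation of the weights did not converge and they ran from 0.0056 to 101. Leaving out 1 cow or 1 array gave 0 to 59 calls, the highest without week 1 of cow 1, where both calls were kept. In the other fits of this kind there were 2 calls without cow 2 (DMKN and ELOVL4), 2 without week 1 of cow 2 (the MHC class I probe set and DMKN) and 0 otherwise. Under the alternatives run CIAPIN1 stayed between 0.38 and 0.43. The sign of IGF2 turned without the 3 arrays (0.00394), and the log2 difference of ELOVL1 (a fatty acid elongase) turned without cow 2 (0.0240) and without week 1 of cow 2 (0.00513). With the probe sets of a gene averaged in place of the one of largest SD, other genes that moved by over 1.5 times included ADPRS (-0.19), MTERF3 (0.19), TYMS (0.16), PTPRC (-0.11), GJB2 (-0.09), ISCU (-0.09), IRF7 (-0.10), THBS1 (-0.05) and TIMP2 (0.30), all of the same sign as before. TIMP2 was at 0.63 without the 3 arrays. The cause of these changes was not tested. A filter on dim probe sets and another background correction could not be run on values centred per probe set.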
